A study of Mus musculus with 10 samples.

Results

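The clustered protocadherin locus of mouse chromosome 18 was described at every cytosine position that the deposited files hold in a window of 1.11 Mb (build mm9), in which covered positions ran from 36904615 to 37982627. Counts were summed over 100-bp tiles, and 130 of the 183899 autosomal tiles with any count fell in the locus. They held 262 cytosine positions. A tile was described in a group only where the libraries of that group together had at least 10 counts. This left 68 tiles measured in at least 1 group and 33 measured in all 5, while 62 tiles had fewer than 10 counts in every group.

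Methylation was read by reduced representation bisulfite sequencing, in which the enzyme MspI cuts at CCGG and the CpG-rich fragments are sequenced after bisulfite treatment. This chemistry does not separate 5-methylcytosine from 5-hydroxymethylcytosine. The groups were sperm of CAST/EiJ males with the genotype label WT, WT zygotes and blastocysts, and zygotes and blastocysts labelled maternal Tet3 KO (here CKO, as in the sample titles), with 2 biological duplicates in each group. All embryos were of the cross C57BL/6J x CAST/EiJ, made by insemination in vitro of eggs from superovulated females of 7 to 10 weeks. Zygotes were frozen 13 h and blastocysts 96 h after fertilisation, in pools of 40 to 50 zygotes or 4 blastocysts. The line that deleted Tet3 in the egg is not given in the sources used here, and the files hold no RNA by which to check the deletion or the cell types. Whether the embryo counts come from both parental genomes or from the CAST/EiJ genome alone is also not given, so a difference between an embryo group and sperm is one between libraries and cannot be read as a change on the paternal DNA.

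Clustered protocadherins are cadherin-type cell-surface proteins that give neurons an identity by homophilic contact. In the RefSeq gene table the locus carries 58 of their genes in the order alpha (14 names), beta (22) and gamma (22). Most alpha and gamma genes have a variable first exon with a promoter of its own, and each neuron uses only a few of these promoters. Methylation of the variable promoters is known to be laid down in the early embryo and to go with their silencing. TET3, supplied by the egg, oxidises 5-methylcytosine in the zygote. The gene table at hand is of another build (GRCm38), so no tile could be assigned to a gene, exon or promoter, and positions are those of mm9.

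The locus received 736 to 2493 counts per library, a share of 0.0732% to 0.115% of the library total. Neighbouring cytosines were usually read together. In 334 of 389 pairs of a tile and a library with several covered positions, all of those positions had the same count (85.9%). Tile counts therefore exceed the number of reads. Intervals below are exact 95% binomial intervals and, like the limits that a count of 0 allows (3 counts of the total), cover counting error only and can be too narrow. With 2 libraries in a group, and with the labels giving no more on how duplicates were separated, p-values set differences against the spread between these libraries only. For edgeR that spread was estimated with the help of all tiles tested.

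Most measured tiles of the locus were unmethylated in the father's gamete. In sperm, 55 of 64 tiles (85.9%) had 20% methylation or less, 6 were intermediate and 3 had 80% or more. Among the other autosomal tiles with at least 10 sperm counts, 40.4% were at 20% or less and 45.6% at 80% or more. Embryos had a similar profile within the locus, each group over its own set of measured tiles. Among zygote tiles, 80.4% of 56 were at 20% or less in WT and 79.3% of 58 in CKO. Among blastocyst tiles the shares were 82.2% of 45 for WT and 83.7% of 43 for CKO. The median tile was at 0% in every group. Elsewhere on the autosomes the corresponding shares were 50.1%, 42.9%, 72.5% and 62.7%. These shares describe libraries summed over replicates and were not tested.

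**Figure D1:**
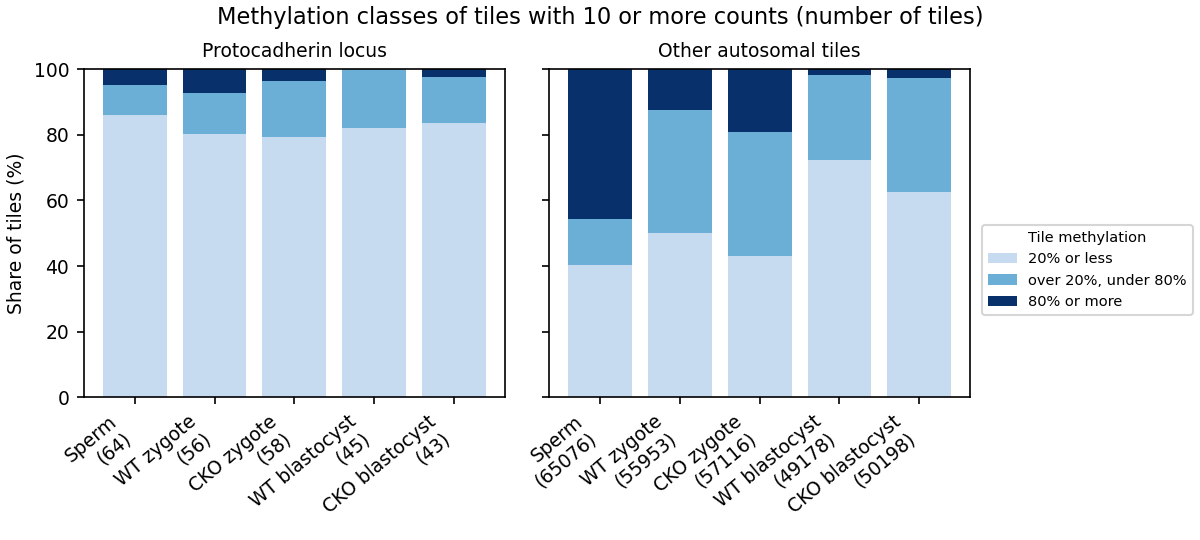
Share of 100-bp tiles (%) in 3 methylation classes, for the locus (left) and all other autosomal tiles (right), in each group with replicates summed and the number of tiles in brackets. The lowest class holds 79.3% to 85.9% of locus tiles in the 5 groups, while on the other autosomal tiles it rises from 40.4% in sperm to 72.5% in WT blastocysts.

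The few tiles of the locus with the most covered cytosine positions had little methylation in any group. Tiles with at least 5 cytosine positions had 4 of 1073 counts methylated in sperm (0.373%, 4 tiles), 0 of 619 in WT zygotes (4 tiles), 6 of 941 in CKO zygotes (5 tiles), 8 of 431 in WT blastocysts (4 tiles) and 0 of 392 in CKO blastocysts (4 tiles). None of these tiles exceeded 20% in any group, though chr18:37926501-37926600 (9 positions) was at 20% in WT blastocysts. All tiles above 20% had at most 4 positions. They were 9 of 60 such tiles in sperm, 11 of 52 in WT zygotes and 12 of 53 in CKO zygotes. In blastocysts they were 8 of 41 for WT and 7 of 39 for CKO. Most tiles with at most 4 positions were thus also at 20% or less. With only 4 or 5 denser tiles in a group, a relation to density was not tested.

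The unmethylated state is best seen in an adjacent pair of well-covered tiles. Tile chr18:37803701-37803800, with 9 positions, had 0 methylated counts in all 10 libraries. Its counts were 178 and 177 in sperm, 153 and 24 in WT zygotes, 133 and 228 in CKO zygotes, 24 and 165 in WT blastocysts and 40 and 91 in CKO blastocysts. The count of 0 allows up to 0.845% in sperm, 1.69% and 0.831% in zygotes (WT, then CKO) and 1.59% and 2.29% in blastocysts. The next tile, chr18:37803801-37803900 with 13 positions, had 1 of 150 methylated counts in sperm replicate 2, 3 of 117 in CKO zygote replicate 1 and 0 in the other 8 libraries. At chr18:37821701-37821800 (5 positions) methylated counts were 1 of 160 and 2 of 260 in sperm and 5 of 160 in WT blastocyst replicate 2, and 0 in the other 7 libraries. At chr18:37425601-37425700 (3 positions) they were 2 of 102 in sperm replicate 2 and 8 of 84 in WT zygote replicate 1, and 0 in the other 8 libraries. In each of these 4 tiles no group reached 10%. Of the 31 sperm-unmethylated tiles measured in all 5 groups, 15 had no methylated count in any embryo group, and 8 of those had none in sperm either.

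**Figure D2:**
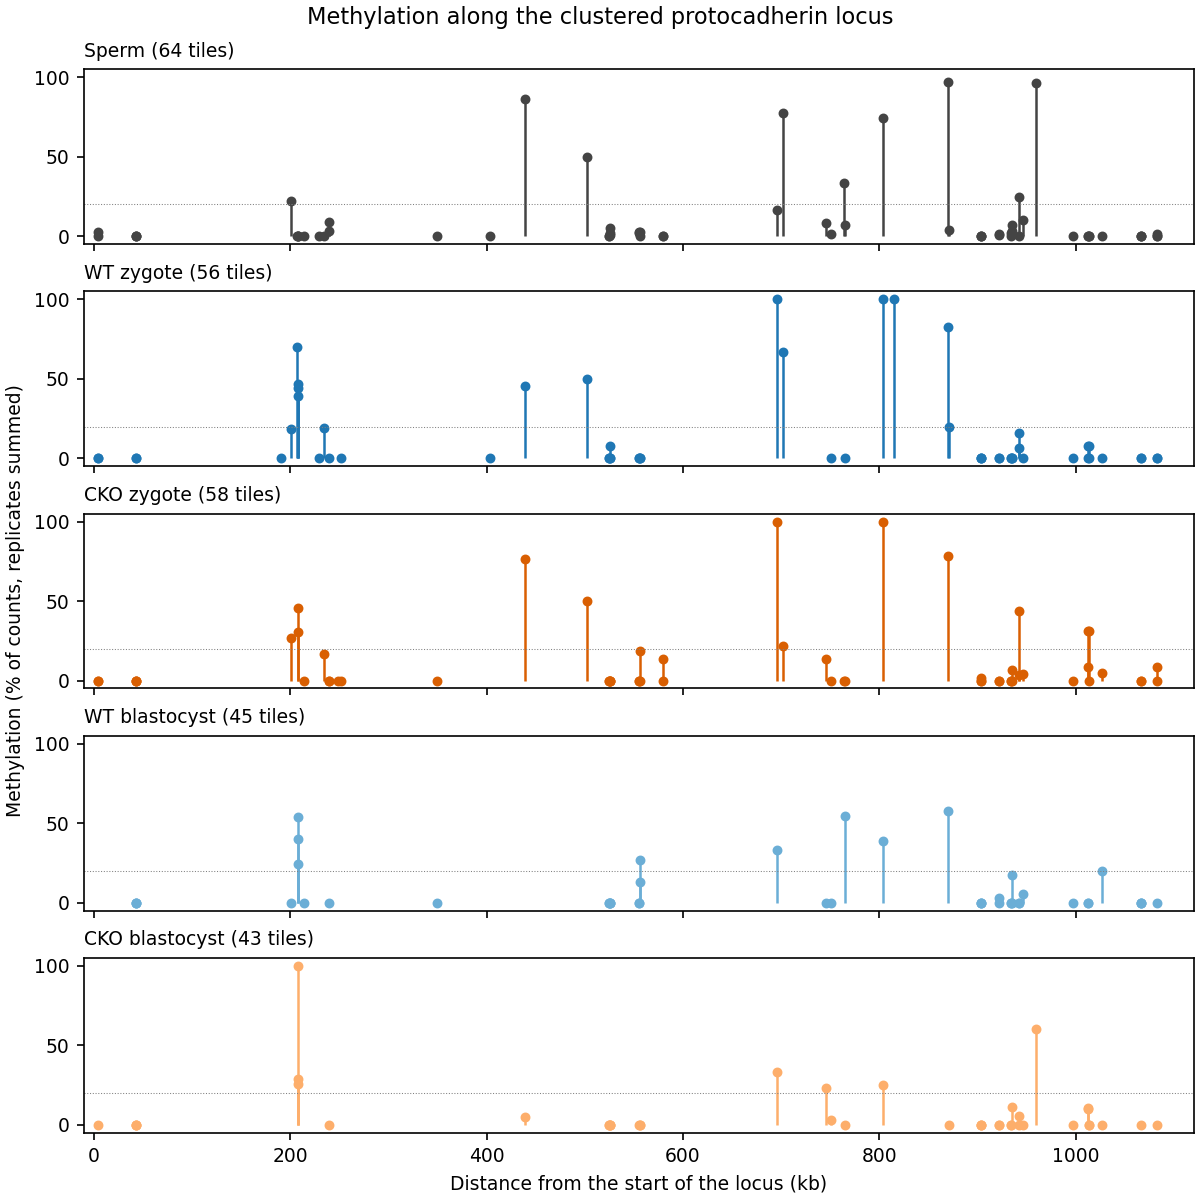
Methylation of each tile with at least 10 counts in the group (%, replicates summed) against its distance from the start of the locus (kb), with a panel for each group and a dotted line at 20%. Most tiles lie at or near 0% in all 5 groups, and the cluster of raised tiles at about 208 kb is present in the 4 embryo groups and absent in sperm.

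A stretch of 300 bp in the 5′ part of the locus departed from this pattern. At chr18:37107701-37108000 none of the 314 sperm counts was methylated, while 42.2% of 180 counts were methylated in WT zygotes, 35.8% of 137 in CKO zygotes, 33.8% of 139 in blastocysts of the WT and 50.0% of 94 in those of the CKO. The stretch holds 8 cytosine positions within 133 bp, in 3 adjacent tiles. It alone supplied 76 of the 137 methylated WT zygote counts found over all 46 sperm-unmethylated tiles with at least 10 counts (55.5%). The corresponding share was 35.8% in CKO zygotes and, among blastocysts, 55.3% for WT and 68.1% for CKO. The stretch was delimited after its values were seen, so its summed values are a description.

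By tile, chr18:37107701-37107800 (3 positions) had 0 of 57 and 0 of 63 methylated counts in the sperm libraries. It had 29 of 66 and 7 of 15 in WT zygotes and 18 of 48 and 12 of 18 in CKO zygotes. In blastocysts it had 2 of 18 and 22 of 42 in WT and 15 of 15 and 15 of 15 in CKO. Each of the 8 embryo libraries was above both sperm libraries. The next tile, chr18:37107801-37107900 (4 positions), had 0 of 70 and 0 of 86 in sperm, 17 of 44 and 16 of 40 in WT zygotes and 13 of 38 and 6 of 24 in CKO zygotes. Its blastocyst values were 0 of 12 and 16 of 54 in WT and 5 of 22 and 8 of 28 in CKO. Here WT blastocyst replicate 1 was level with sperm and the other 7 embryo libraries were above it. The third tile, chr18:37107901-37108000, holds 1 position and had 0 of 38 in sperm. It had 7 of 15 in WT zygotes, 0 of 9 in CKO zygotes, and, in blastocysts, 7 of 13 for WT and 4 of 14 for CKO.

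Both larger tiles were higher in WT zygotes than in sperm, where the zygote counts may include DNA of the egg. The first was higher by 45.3 points, at 45.3% ± 1.93 (SD, n = 2), with an adjusted p of 0.00640 (edgeR's quasi-likelihood test, adjusted over 7505 autosomal tiles). The second was higher by 39.3 points, at 39.3% ± 0.964 (SD, n = 2), with an adjusted p of 0.00631 in the same test. They were the 2 tiles called among the 9 locus tiles with at least 10 counts in all 10 libraries. Their positions from 37107771 to 37107813 had equal counts in every library, so both calls can rest in part on the same reads. They are thus not 2 independent results. Over all tiles tested, 15.2% were called in either direction, 1.4% higher and 13.8% lower in WT zygotes. In CKO zygotes the first tile was higher as well, by 52.1 points at 52.1% ± 20.6 (SD, n = 2, edgeR adjusted p = 0.0170), and was the 1 tile called of the same 9, against 1.29% of all tiles called higher, 5.58% called lower and 6.88% called in either direction. The second had 29.6% ± 6.51 in CKO zygotes and an adjusted p of 0.0578. Both zygote comparisons use the same sperm libraries. With a dispersion common to all tiles edgeR called no tile in either comparison, and the WT calls at both tiles were lost without sperm replicate 1 or sperm replicate 2 (adjusted p 0.145 to 0.173). The call at the first tile was also lost without WT zygote replicate 1 (0.105), and in CKO zygotes it was lost without either sperm replicate (0.373 and 0.345), without CKO zygote replicate 2 (0.0755) and with limma (0.0591).

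Within the stretch, methylation changed from cytosine to cytosine. The first 5 positions, 37107771 to 37107813, had the same count as each other in every library, as reads that span all of them would give. Position 37107808 had 0 methylated of 119 counts over all 10 libraries, 79 of them from embryos, which allows up to 3.80% there. Position 37107813, only 5 bp away, had 39 methylated of 119, all in embryos, which is 49.4% of the 79 embryo counts. The other 3 positions of this group had 47, 36 and 37 methylated of 79 embryo counts (59.5%, 45.6% and 46.8%). The last 3 positions, 37107867 to 37107904, had 22 and 20 of 52 and 18 of 51 embryo counts methylated. They had no count in WT zygote replicate 1 or WT blastocyst replicate 1, so the replicates of these 2 groups rest on different cytosines in part. In libraries with few counts, a cytosine was often methylated in all of them or in none. CKO zygote replicate 2, with 6 counts at each of the 8 positions, had 6 of 6 at 37107771, 37107773 and 37107813 and 0 of 6 at the other 5. CKO blastocyst replicate 1 had 5 of 5 at 37107813 where replicate 2 had 0 of 5. WT zygote replicate 2 had 5 of 5 at 37107779, where replicate 1 had 8 of 22, and 0 of 5 at 37107813, where replicate 1 had 17 of 22. The closeness of the 2 WT zygote libraries in the tile values therefore did not extend to the individual cytosines, and how many DNA molecules stand behind these counts is not known.

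**Figure D3:**
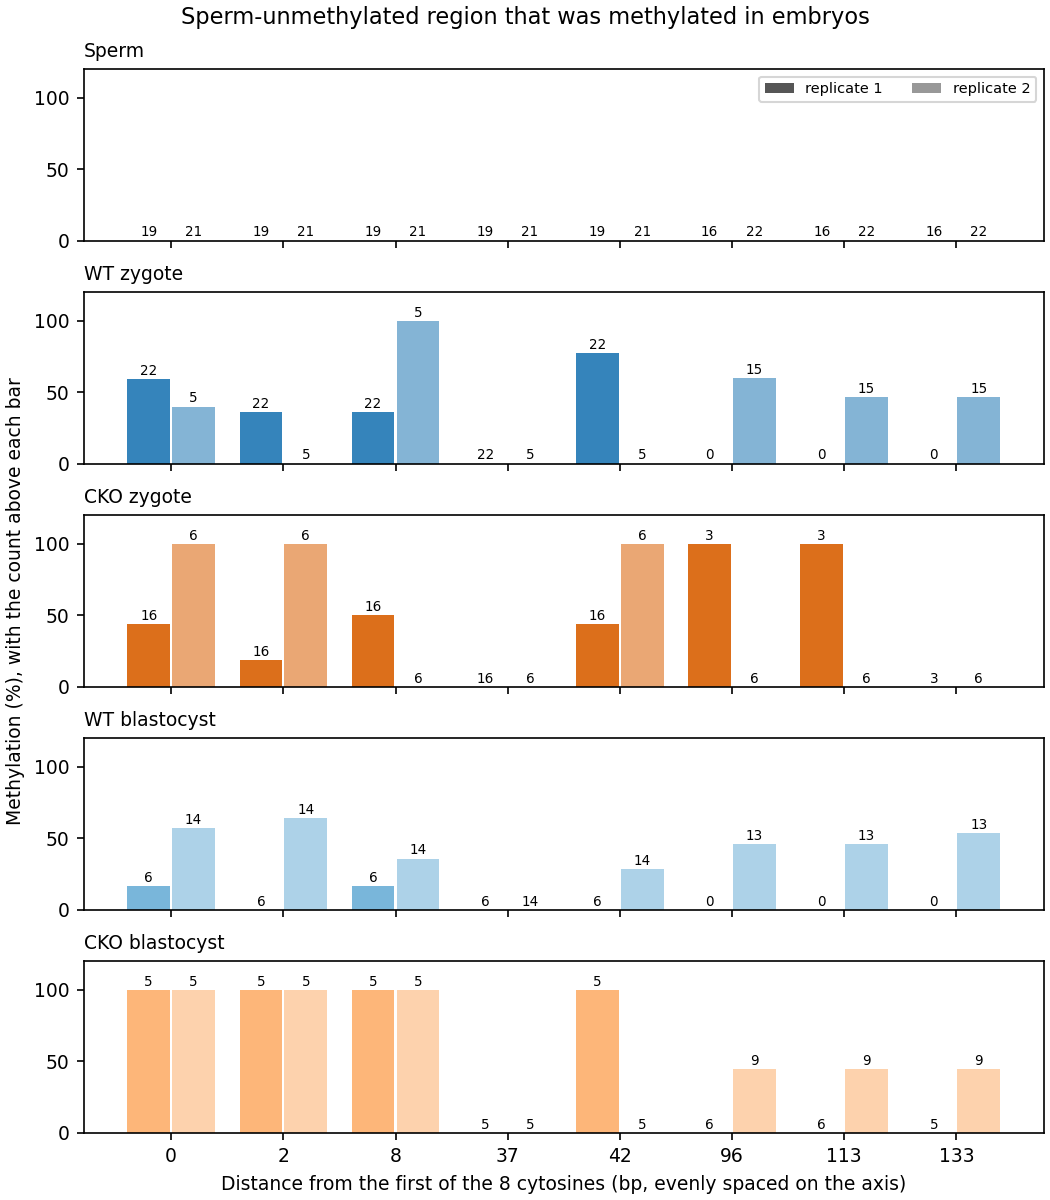
Methylation (%) of the 8 cytosines of the 300-bp stretch in each library, with bars for replicates 1 and 2, the count above each bar, and the distance from the first cytosine (bp, evenly spaced) on the horizontal axis. Sperm is at 0% throughout, the fourth cytosine is at 0% in all 10 libraries, and at most 22 counts lie behind any bar.

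The genotypes were compared next, since the study asks what the egg's Tet3 contributes. The edgeR test called 0 of the 9 locus tiles between CKO and WT zygotes and 0 of 9 between CKO and WT blastocysts, against 0.0% of all 7546 tiles in each comparison. At an unadjusted p below 0.05 there were 0 locus tiles in zygotes and 1 in blastocysts. The likelihood ratio test of edgeR and limma also called 0 locus tiles in both. The blastocyst tile was chr18:37107701-37107800, with all 30 counts methylated in CKO (95% interval 88.4% to 100%) and 31.7% ± 29.2 in WT (SD, n = 2, edgeR adjusted p = 1). A difference of 68.3 points thus stood beside a spread of 29.2 points between the WT libraries, and those 30 counts come from 5 counts at each of 3 positions in each CKO library. For the interaction, the change of the genotype difference between stages, edgeR called 0 of 9 locus tiles, against 0.0133% of all tiles, with 0 at an unadjusted p below 0.05. limma and the likelihood ratio test also called 0, with 1 each at an unadjusted p below 0.05.

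A wider set, with at least 10 counts in each of the compared groups and 5 in each library, was compared by overlap of the libraries. In zygotes, 29 locus tiles could be compared. CKO lay above WT without overlap of the libraries in 0 of them, where 14.1% of all autosomal tiles did, and below WT in 1, where 4.67% did. The lower tile was chr18:37107801-37107900. In the 25 of these that were unmethylated in sperm the background was 2.52% higher and 1.43% lower. In blastocysts, CKO lay above WT in 1 of 20 tiles (13.8% of all tiles) and below in 0 (5.89%), and the higher tile was chr18:37107701-37107800. Among the 18 sperm-unmethylated tiles of that set the background was 1.84% higher and 2.23% lower.

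Averaged over the sperm-unmethylated tiles of the locus, the genotypes could not be separated with 2 libraries a group. In 14 such tiles with at least 10 counts in every group and 5 in every library, the mean of WT zygotes was 6.51% ± 0.452 and that of CKO zygotes 7.54% ± 0.211 (SD, n = 2 each). The difference of 1.03 points was larger than its SD of 0.499, at an exact two-sided permutation p of 0.3333, the smallest possible with 2 against 2 libraries. Except with the replicate block, the SD of a difference is the root of the summed variances of the 2 groups. It thus describes a difference between single libraries and is wider than the error of a difference of means. With counts summed over the same tiles it was -1.91 ± 2.81 points, and with at least 20 counts in each group and 10 in each library, which left 7 tiles, it was -0.236 ± 1.80 points. Its direction depends on the setting. In blastocysts the levels were 4.63% ± 5.42 in WT and 9.91% ± 1.22 in CKO (SD, n = 2 each). The difference was 5.28 points with an SD of 5.56 (exact permutation p = 0.3333). Other count minimums, summed counts and single positions gave 1.64 to 16.2 points. WT blastocyst replicate 1 had 0.794% and replicate 2 had 8.46%, while the CKO libraries had 9.05% and 10.8%. Sperm had 0.738% ± 0.256 in these tiles (n = 2).

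The embryo means were lower without the 300-bp stretch, a setting chosen after seeing the data. The stretch was picked for its high embryo values, so this fall was fixed in advance. Leaving out its 2 tiles in this set, the remaining 12 tiles averaged 0.543% ± 0.769 (WT) and 1.99% ± 1.42 (CKO) in zygotes and 1.52% ± 2.15 (WT) and 1.09% ± 1.08 (CKO) in blastocysts (SD over 2 libraries). For zygotes CKO minus WT then was 1.44 ± 1.62 points, and for blastocysts -0.430 ± 2.40 points (SD, no test). The other 7697 autosomal tiles of this class had 2.42% ± 0.0511 and 2.74% ± 0.0574 in WT and CKO zygotes and 1.79% ± 0.144 and 1.68% ± 0.00700 in WT and CKO blastocysts (n = 2 each). No raised tiles were left out of that set, so it cannot be compared with the 12 remaining locus tiles. With all 14 locus tiles kept, and taken as locus minus other tiles, CKO exceeded WT by 0.708 ± 0.430 points in zygotes (SD). In blastocysts it did so by 5.39 ± 5.70 points (SD). The exact permutation p was 0.3333 in each case.

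**Figure D4:**
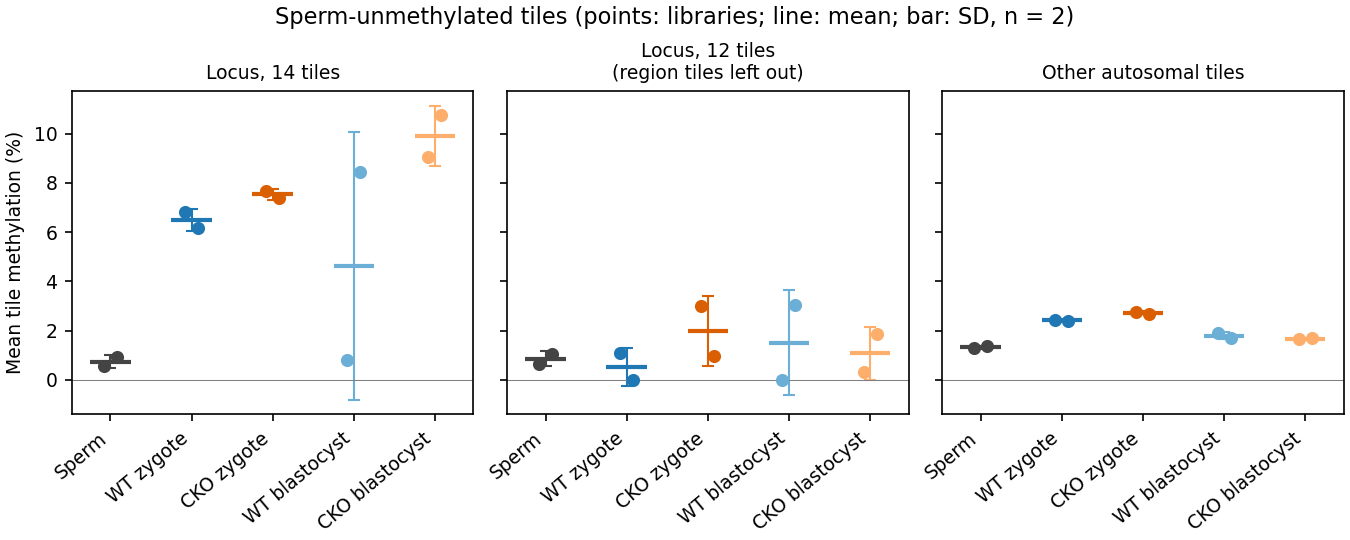
Mean methylation (%) of sperm-unmethylated tiles in each library (points), with the group mean (line) and SD (bar, n = 2), for 14 locus tiles, for the 12 that remain without the 300-bp stretch, and for the other autosomal tiles. The embryo means of 4.63% to 9.91% in the first panel fall to 0.543% to 1.99% in the second. The stretch was picked for its high embryo values, and no such tiles were left out of the third panel.

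Near the 3′ end of the locus, some tiles without methylation in sperm and WT zygotes had methylated counts in CKO zygotes. They were named because an embryo group reached 20% there, so they do not stand for this part of the locus. In the 100-kb bin that holds them, 7 of 296 counts were methylated in WT zygotes and 38 of 456 in CKO zygotes. Most of those 38 counts come from the 3 tiles given next, which had no methylated count in WT zygotes. The bin therefore gives no comparison of the genotypes apart from the picked tiles. Tile chr18:37912801-37912900 (2 positions) had 0 of 70 and 0 of 46 methylated counts in sperm and 0 of 28 and 0 of 4 in WT zygotes, against 7 of 24 and 11 of 34 in CKO zygotes. Both CKO zygote libraries, at 30.8% ± 2.25 (SD, n = 2), stood above both WT libraries, the second of which had only 4 counts. In blastocysts the tile had 0 of 12 and 0 of 6 in WT and 0 of 2 and 2 of 18 in CKO. At chr18:37913601-37913700 (1 position) methylation came from a single library, with 10 of 20 in CKO zygote replicate 2, 0 of 12 in replicate 1, and 0 in every other library with counts. At chr18:37926501-37926600 (9 positions) 3 of 18 counts were methylated in CKO zygote replicate 1 and 3 of 9 in WT blastocyst replicate 2, and 0 in the other 8 libraries. None of these 3 tiles had enough counts in all libraries for edgeR.

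The few tiles of the locus that were methylated in sperm are described next. Their embryo values may likewise mix the parental genomes. No sperm-methylated tile reached 10 counts in all 5 groups and 5 in each library, so the planned means of this class could not be computed, and 1 tile remained at 5 counts per group and 1 per library. That tile, chr18:37769701-37769800 (1 position), had 13 of 13 and 17 of 18 methylated counts in sperm, 22 of 22 and 12 of 19 in WT zygotes and 7 of 7 and 4 of 7 in CKO zygotes. It had 0 of 4 and 15 of 22 in WT blastocysts and 0 of 6 and 1 of 1 in CKO blastocysts. The libraries of the 2 zygote genotypes overlapped, at 81.6% ± 26.1 in WT and 78.6% ± 30.3 in CKO (SD, n = 2 each). The other 2 sperm-methylated tiles fall outside the rule for named tiles and are given for completeness. At chr18:37338801-37338900 (1 position) sperm had 12 of 12 and 20 of 25, WT zygotes 6 of 10 and 4 of 12, and CKO zygotes 0 of 4 and 13 of 13. Only 1 of 28 blastocyst counts was methylated there, which is 0 of 9 in WT and 1 of 19 in CKO. At chr18:37859301-37859400 (2 positions) sperm had 12 of 12 and 17 of 18, WT zygotes 5 of 6 and 2 of 2, WT blastocysts 2 of 2 in replicate 2, and the CKO blastocyst libraries 12 of 12 and 0 of 8.

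Among the 9 tiles tested, the largest difference between stages was at chr18:37703701-37703800 (2 positions), which was intermediate in sperm. Methylated counts were 21 of 34 and 43 of 52 in sperm, 20 of 20 and 14 of 14 in WT zygotes and 12 of 12 and 10 of 10 in CKO zygotes. In blastocysts they were 2 of 18 and 12 of 18 in WT and 7 of 18 and 0 of 10 in CKO. All 4 zygote libraries were at 100% and all 4 blastocyst libraries were lower, and the 2 genotypes overlapped at both stages. The difference, blastocyst minus zygote, was -61.1 points in WT (edgeR adjusted p = 0.368) and -80.6 points in CKO (adjusted p = 0.334), and neither passed the threshold. The likelihood ratio test of edgeR called this tile lower in both genotypes (adjusted p = 0.0467 and 0.0267), and limma in neither (0.193 and 0.178).

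The other intermediate tile measured in all 5 groups, chr18:37842601-37842700 (2 positions), had 14 of 64 and 12 of 42 methylated counts in sperm. It had 11 of 46 and 4 of 48 in WT zygotes, 48 of 90 and 6 of 34 in CKO zygotes, 0 of 30 and 0 of 24 in WT blastocysts and 0 of 16 and 3 of 40 in CKO blastocysts. WT zygotes averaged 16.1% ± 11.0 and CKO zygotes 35.5% ± 25.2 (SD, n = 2 each), a difference smaller than the CKO spread (edgeR adjusted p = 1). The lower level of 3.75% ± 5.30 in CKO blastocysts had, against CKO zygotes, an unadjusted p of 0.0546 and an adjusted p of 0.498 (edgeR).

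Over the locus, edgeR called 0 of 9 tiles between WT blastocysts and WT zygotes (0.424% of all tiles called, 0.411% lower) and 0 of 9 between CKO blastocysts and CKO zygotes (0.729% called, 0.716% lower), with 1 and 2 tiles at an unadjusted p below 0.05. The likelihood ratio test called 1 tile in each and limma none. In the wider set, 3 of 22 tiles were lower in WT blastocysts than in WT zygotes without overlap of the libraries, against 24.2% of all autosomal tiles, and 0 were higher, against 2.21%. In CKO embryos 2 of 22 were lower, against 30.0%, and 1 was higher, against 1.87%. Among the sperm-unmethylated tiles of these sets, 1 of 19 was lower (2.65% of all such tiles) and 0 higher (1.76%) in WT, and 0 of 20 were lower (4.21%) and 1 higher (1.47%) in CKO. The higher tile was chr18:37107701-37107800. The tiles lower in both genotypes were chr18:37703701-37703800 and chr18:37842601-37842700, and chr18:37107801-37107900 was lower in WT only, a difference between the genotypes that was not itself called by the interaction test (edgeR adjusted p = 1).

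Of the 55 tiles that were unmethylated in sperm, 11 reached 20% in an embryo group with at least 10 counts. They include the 3 tiles of the 300-bp stretch, the tile chr18:37106901-37107000 before it and the 3 tiles near the 3′ end described above, which leaves 4. At chr18:37595801-37595900 (3 positions) all counts of the zygotes were methylated, with 15 of 15 in WT replicate 1, none measured in replicate 2, and 6 of 6 and 18 of 18 in CKO. Sperm had 1 of 9 and 1 of 3 there, with only 12 counts in all, and blastocysts had 4 of 12 in WT and 4 of 12 in CKO. At chr18:37665401-37665500 (2 positions) methylation was seen in WT blastocyst replicate 1 (12 of 22), against 3 of 20 and 0 of 22 in sperm and 0 in every zygote library. At chr18:37645501-37645600 (3 positions) it was seen in CKO embryos, with 6 of 6 and 0 of 39 in CKO zygotes and 8 of 21 and 1 of 18 in CKO blastocysts, against 0 of 6 in WT zygotes, 0 of 27 in WT blastocysts and 0 of 21 and 4 of 27 in sperm. At chr18:37456301-37456400 (1 position), which falls outside the naming rule, WT blastocysts had 4 of 14 and 0 of 1, sperm had 0 of 14 and 1 of 27, and the other 6 libraries had 0. In the last 3 tiles the high value came from 1 library or differed widely between the duplicates. As a share of sperm-unmethylated tiles with at least 10 counts, those above 20% were 5 of 46 in WT zygotes (10.9%), 5 of 48 in CKO zygotes (10.4%), and, in blastocysts, 6 of 41 for WT (14.6%) and 5 of 39 for CKO (12.8%). In each embryo group these include tiles of the 300-bp stretch, which was picked for its high embryo values. In WT zygotes and CKO blastocysts the tiles of the stretch were most of those above 20%. The shares over the other autosomal tiles were 4.77%, 5.68%, 3.28% and 3.13%. These are counts of neighbouring tiles, which share reads, and they were not tested.

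**Figure D5:**
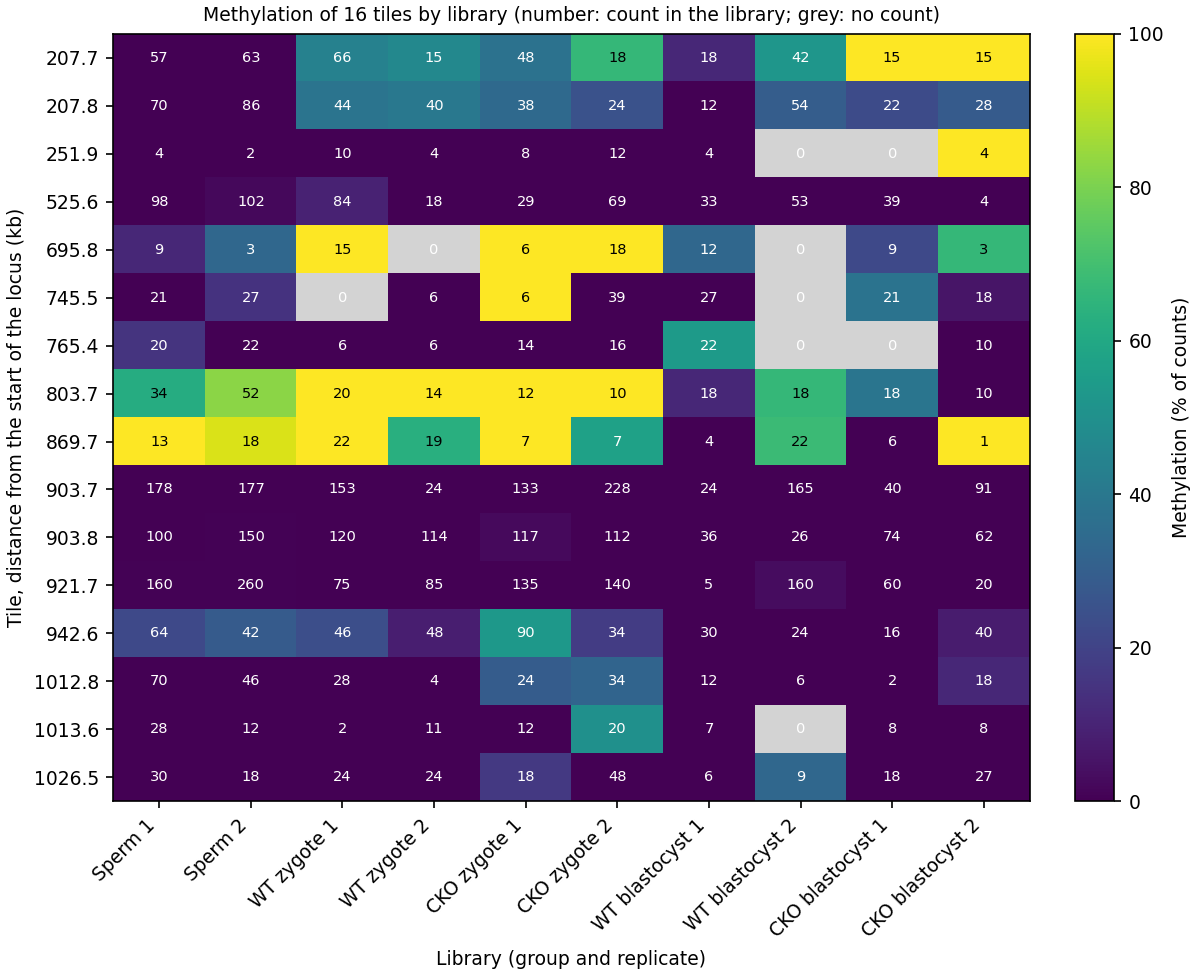
Methylation (colour, %) of the 16 tiles chosen by the naming rule in each of the 10 libraries, ordered by distance from the start of the locus (kb), with the count of the library written in each cell and grey where it had none. The 2 tiles at 207.7 and 207.8 kb are at 0% in both sperm libraries and raised in most embryo libraries, and the tile at 803.7 kb is at 100% in all 4 zygote libraries.

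Along the locus, methylation in embryos was uneven. In 100-kb bins, the third bin holds the 300-bp stretch. This bin had 23.7% of 410 counts methylated in WT zygotes and 21.3% of 268 in CKO zygotes. In blastocysts it had 24.9% of 189 for WT and 44.3% of 106 for CKO, and in sperm 3.49% of 516. Its embryo values largely restate the stretch, which supplied 76 of the 97 methylated counts in WT zygotes and 49 of 57 in CKO zygotes. In each blastocyst group the stretch supplied all 47. The ninth bin had 49.2% of 197 in sperm, 65.2% of 138 in WT zygotes, 91.7% of 36 in CKO zygotes, and, in blastocysts, 46.8% of 62 for WT and 17.5% of 40 for CKO, from 2 to 4 tiles. The first bin had 1 of 322 counts methylated in sperm and none of 178, 179, 152 and 114 in the 4 embryo groups. The tenth bin, with the most tiles (28), had 3.94% of 1904 counts in sperm and 1.35% to 4.49% in the embryo groups. Counts of a bin come from different tiles in different groups, so these sums describe each group and do not compare them.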

How the data were processed

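Per the labels, 10 libraries in 5 groups of 2 were measured by reduced representation bisulfite sequencing. The deposited files give methylated and unmethylated counts and the percent the authors computed from them for each cytosine position. Only the counts were used, and the percent recomputed from them differed by less than 0.001 points at every position. Bismark 0.10.1, Trim Galore and build mm9 are named per the submitters' processing notes. Settings and any assignment of reads to parental alleles: not given in the sources used here. Library totals ranged from 1005492 to 2535229 counts.

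Counts were summed over 100-bp tiles in Python 3.11.15. Sperm-unmethylated tiles had 20% or less and sperm-methylated tiles 80% or more over both sperm libraries. edgeR 4.0.16 (R 4.3.3) fitted both counts of each tile with a term per library for depth and dispersion 0 (quasi-likelihood, Benjamini-Hochberg at 0.05) on all autosomal tiles with at least 10 counts in every library: 7546 tiles over 8 embryo libraries and 7505 over all 10. The test was also run on simulated counts drawn independently for each tile. Neighbouring tiles of the real data can share reads, so that run does not cover this, and nothing here rests on it. limma 3.58.1, other dispersions, count minimums, classes and left-out libraries were alternatives. Named tiles were the best-covered of each class, those raised above sperm, those with the largest genotype differences without overlap, and those called. The members, lists and tests were chosen with earlier results of these data known. The comparison with other sperm-unmethylated tiles was added after the planned sperm-methylated means proved empty. No sequence is printed for this locus.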

Additional observations from a re-analysis of the deposited data

How the results depend on the processing

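The 2 tiles called higher in WT zygotes than in sperm were both called with limma, the likelihood ratio test, 5 counts in every library and the replicate block. The number was 0 with a common dispersion and 0 at 20 counts in every library, where neither tile was tested, and 0 to 2 when 1 library was left out, where the lone library of a group was assumed to vary like the other groups. For CKO zygotes against sperm the number was 1, with 0 under a common dispersion, limma and 20 counts, 2 with the likelihood ratio test, 1 with the replicate block, and 0 to 2 when 1 library was left out. The likelihood ratio test called 1 tile in each comparison of blastocysts with zygotes. No other alternative changed the counts of 0. For sperm-unmethylated tiles, CKO minus WT in zygotes was 1.03 points, -0.236 at 20 counts per group and 10 per library, -1.91 with summed counts, 2.58 at 5 counts per group and 1 per library, 4.85 over single positions, 1.44 without the 300-bp stretch, and -0.0168 to 1.71 points without 1 library. Taken as locus minus other tiles it was -0.540 and -2.13 under the same 2 settings and -0.417 to 1.43 without 1 library. In blastocysts the difference was 5.28 points, 1.64 at 5 counts per group and 1 per library, 1.80 with summed counts, 11.6 at 20 counts per group and 10 per library, and 16.2 over single positions. It was -0.430 points, and -0.317 as locus minus other tiles, without the 300-bp stretch, a setting chosen after seeing the data, and 4.12 to 9.21 and 4.19 to 9.47 points without 1 library. Replicate numbers showed no pairing of these samples: deviations of same-numbered libraries correlated at -0.0223 to 0.0136 across 7505 tiles. With as few as 10 counts in a tile and library, a weak pairing could be missed. With the replicate block the zygote difference of 1.03 points had an SD of 0.241 and the blastocyst difference of 5.28 points an SD of 4.20. The planned sperm-methylated means were not run, since no tile met their counts. Depth limits the rest: 9 of 130 tiles could be tested.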

Other observations

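A pair of tiles measured in few groups lay apart from the locus median of 0%. They fall outside the naming rule and were chosen after their values were seen. The tile chr18:37106901-37107000 (2 positions), which lies shortly before the 300-bp stretch, had 0 of 4 and 0 of 6 methylated counts in sperm and 6 of 8 and 8 of 12 in WT zygotes. It had 2 of 2 in CKO zygote replicate 2 and 4 of 8 in WT blastocyst replicate 1, with none measured in the other 4 libraries. At chr18:37602001-37602100 (4 positions) the duplicates of WT zygotes disagreed, with 38 of 38 counts methylated in replicate 1 and 5 of 26 in replicate 2. Sperm had 2 of 2 and 15 of 20 there, CKO zygote replicate 2 had 7 of 32, and WT blastocyst replicate 1 had 0 of 6.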
